A study of Danio rerio with 2 samples.

Results

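The long arm of zebrafish chromosome 4 carried 545 of the 14806 regions in the list of uracil-DNA regions made at a threshold of 0.25 from reads filtered on mapping quality. Its members were chosen by position alone, as the regions of that list on chromosome 4 that begin at 27000000 or beyond in GRCz11. They were set beside 332 regions on the short arm, below 27 Mb, and 13929 regions on the 24 other chromosomes. The DNA came from pooled, wild-type embryos of the AB strain at 2.5 hpf, and was sonicated to fragments of 300 to 500 bp according to the labels, while the study's methods give a lower range. A FLAG-tagged sensor protein for uracil was used to pull fragments out (the enriched library), and sonicated DNA without pull-down was sequenced as the input library. Each library was made once, and each deposited list compares the enriched library with the input, so no value here has a replicate and no test of a difference was possible.

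Uracil is not a regular base of DNA. It arises when DNA polymerases use dUTP in place of dTTP or when cytosine loses its amino group, and it is kept low by dUTPase, which breaks down dUTP, and by uracil-DNA glycosylases, which cut uracil out and start base excision repair. The long arm of zebrafish chromosome 4 is known as a heterochromatic and late-replicating stretch, rich in repeats, with clusters of NLR immune receptor genes, zinc finger genes, 5S ribosomal RNA genes and small nuclear RNA genes. In such sequence a read often fits several places, and a filter on mapping quality removes reads whose place is uncertain. The lists hold positions and scores and no chromatin mark, so the heterochromatin of the arm was not checked here.

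In the filtered list the long arm carried uracil-DNA regions about as densely as the rest of the genome. It held 10.7 regions per Mb over 51.01 Mb, against 12.3 per Mb on the short arm and 11.01 per Mb on the other chromosomes. The regions covered 1.67% of the long arm, 1.89% of the short arm and 1.71% of the other chromosomes. The long arm made up 3.80% of the sequence and held 3.68% of the regions (95% Wilson interval 3.39 to 4.0%) and 3.70% of the region bases. Its density was 0.970 times that of the other chromosomes (interval 0.891 to 1.06) and 0.869 times that of the short arm. Among 26 units, the 2 arms and each of the 24 other chromosomes, the long arm ranked 19 from the highest, and the other chromosomes ran between 9.25 per Mb on chromosome 14 and 12.2 per Mb on chromosome 12. All intervals given here cover counting error and treat regions as independent, which neighbouring regions are not.

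**Figure D1:**
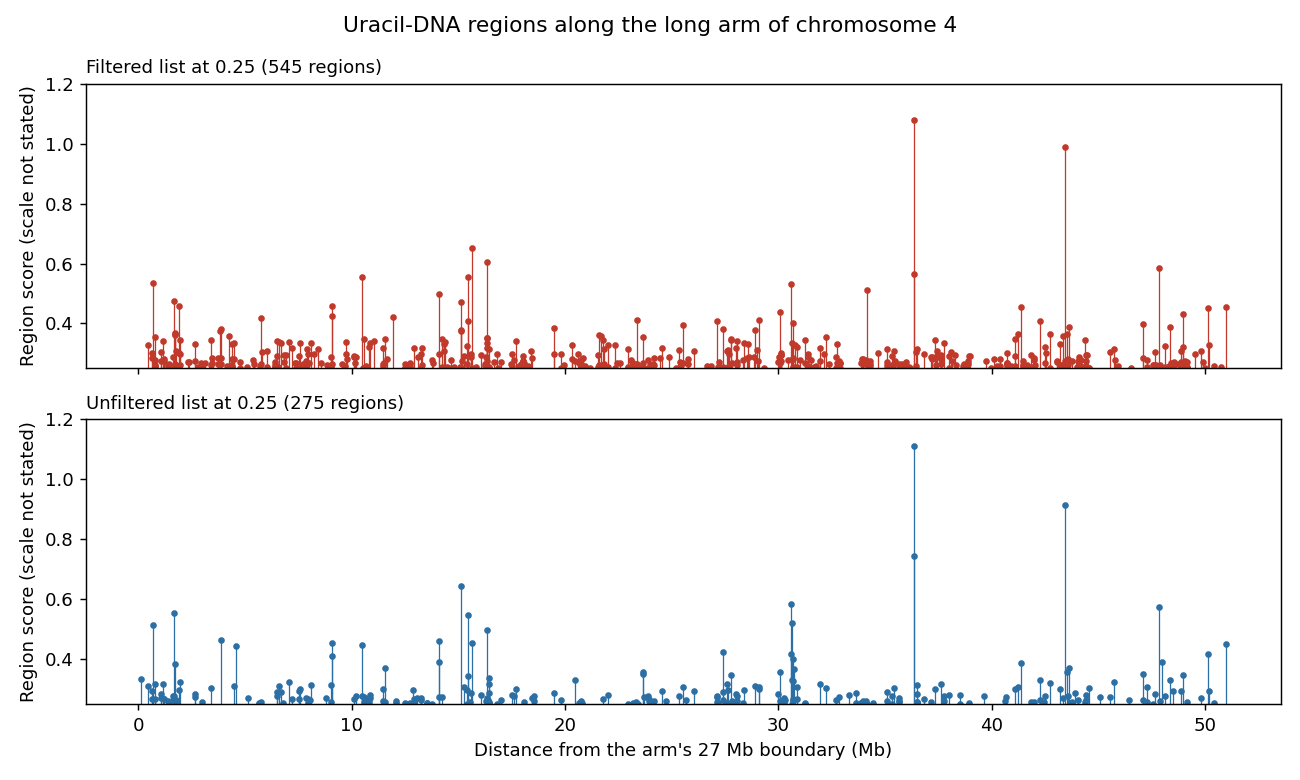
Score of each region (vertical axis, starting at the threshold of 0.25, scale not stated) against its distance from the 27 Mb boundary in Mb (horizontal axis), for the 545 filtered regions (top) and the 275 unfiltered regions (bottom) of the long arm. Regions lie along the whole arm in both lists, most scores are near the threshold, and the highest filtered scores are 1.08 and 0.989.

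Region length, score and spacing on the long arm were also close to those elsewhere. The median length was 800 bp (interval 700 to 900 bp) on the long arm, 800 bp on the short arm and 800 bp on the other chromosomes. The 90th percentile was a little higher on the long arm, at 4660 bp, against 4070 bp on the short arm and 3900 bp on the other chromosomes. The longest region was shortest on the long arm, with 17900 bp, 18700 bp and 56100 bp in the same order. Regions over 5 kb numbered 36 on the long arm (6.61%, interval 4.81 to 9.01%), 14 on the short arm (4.22%) and 727 on the other chromosomes (5.22%), so the shares were within their counting error. The shortest regions, a single step of 100 bp, made up a larger share on the long arm than on the other chromosomes, while the intervals of the 2 arms overlapped. There were 67 of them (12.3%, interval 9.80 to 15.3%), against 27 on the short arm (8.13%, interval 5.65 to 11.6%) and 1177 on the other chromosomes (8.45%, interval 8.0 to 8.92%). Without the filter the long arm had the lowest share, with 18 of 275 (6.55%, interval 4.18 to 10.1%). The short arm had 7.32% (interval 4.68 to 11.3%) and the other chromosomes 8.03% (interval 7.51 to 8.58%), and these intervals overlapped.

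The score, which the lists give without a unit, had a median of 0.272 (interval 0.269 to 0.276) on the long arm, 0.276 (0.271 to 0.281) on the short arm and 0.274 (0.273 to 0.274) on the other chromosomes. A score above 0.5 was listed for 11 long-arm regions (2.02%), 5 short-arm regions (1.51%) and 295 regions of the other chromosomes (2.12%). Longer regions tended to have higher scores on both arms and elsewhere. Spearman's rho of length with score was 0.868 over the 545 long-arm regions, 0.915 over 332 short-arm regions and 0.906 over 13929 other regions, as a description of regions that share a library pair and a threshold.

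Neighbouring long-arm regions were separated by a median gap of 43.8 kb (interval 31.7 to 52.7 kb, 544 gaps), against 34.5 kb on the short arm and 39.7 kb on the other chromosomes. Short gaps were about as common on the long arm as elsewhere. Of the long-arm gaps, 20.6% were at most 1 kb and 33.6% at most 10 kb, while 6.80% were over 300 kb, and on the other chromosomes these shares were 20.4%, 33.1% and 6.86%. When regions within 10 kb were merged, the long arm held 362 stretches, of which 34.0% joined 2 or more regions, against 35.4% on the short arm and 33.0% on the other chromosomes. No 1 Mb bin of the arm was empty; the 51 bins held between 1 and 22 regions with a median of 10, which was also the median on the other chromosomes. Of the 100 kb windows, 47.1% on the long arm, 42.2% on the short arm and 45.6% on the other chromosomes held no region.

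**Figure D2:**
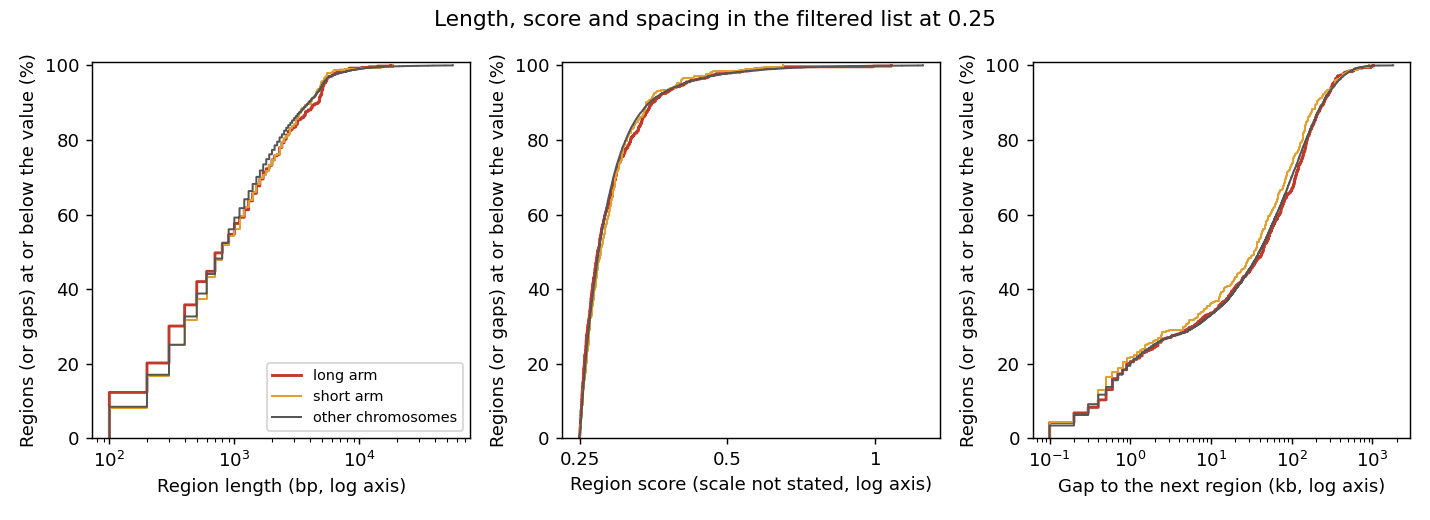
Cumulative share of regions (or gaps, in %) at or below a given length in bp, score and gap to the next region in kb, each on a log axis, for the long arm (red), the short arm (yellow) and the other chromosomes (grey), filtered list at 0.25. The 3 curves run close together in each panel. The long arm stands above the others at 100 bp, where its share is 12.3%.

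Both ends of the arm held regions. The last region before the boundary, from 26950701 to 26955700 with a score of 0.312, ended 44.3 kb short of it, and the first region of the long arm, from 27424101 to 27425400 with a score of 0.327, began 424.1 kb beyond it. The far end of the arm held the last region of the chromosome, from 78001201 to 78006400. The longest gap without a filtered region ran from 45436701 to 46471100 (1034 kb), and 2 unfiltered regions lay inside it. The next longest gaps ran from 71552301 to 72531900 (979.6 kb), from 59915401 to 60872200 (956.8 kb), from 66001401 to 66753500 (752.1 kb) and from 56308901 to 56971100 (662.2 kb), and unfiltered regions lay in all but the last. Longer gaps occurred elsewhere, with 1822 kb the longest on the other chromosomes.

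The highest score of the arm belonged to a region of 100 bp, from 63362501 to 63362600, at 1.08. A second region of 100 bp, from 63368001 to 63368100, followed after 5.4 kb with a score of 0.567. These 2 regions stood apart from regions of their length. Of the 1271 regions of 100 bp in the whole filtered list they were the only ones with a score above 0.5, and the highest such score was 0.261 on the short arm and 0.477 on the other chromosomes. Both places were also listed without the filter, with the order of the scores turned round. The unfiltered region at the same 100 bp had 0.744, and that from 63367901 to 63368300 had 1.11, the highest unfiltered score of the arm.

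The second highest filtered score was 0.989, in a region of 8300 bp from 70440501 to 70448800. In the filtered lists every region at a higher threshold lay inside a region at the lower one. The region that began at 70440501 reached each threshold and narrowed as the threshold increased. The list at 0.5 held 5400 bp of it, from 70440701 to 70446100 at 1.33, and the list at 1 held 5000 bp of it, from 70440801 to 70445800 at 1.37. In both of these lists it had the highest score of the arm, above the 1.08 of the 100 bp region. Without the filter it was listed from 70440601 to 70448900 at 0.916. It and the region from 63362501 to 63362600 were the 2 long-arm regions that reached the filtered list at 1.

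The other 7 of the 10 highest scores belonged to regions over 5 kb. Of these, the region from 42617001 to 42624700 had a score of 0.652, that from 43316301 to 43323200 had 0.606, and that from 74855801 to 74866200, 10400 bp long, had 0.584. Those from 42455701 to 42462500, from 37478301 to 37484400 and from 27693501 to 27698600 had 0.557, 0.554 and 0.536. The longest region of the arm was the tenth by score. It ran from 57590001 to 57607900, 17900 bp, with a score of 0.531, and 3 regions of the 0.5 list lay inside it. All 10 were covered over 67.5% or more of their length by unfiltered regions. The regions next in length, from 57685401 to 57699400 (14000 bp, score 0.400) and from 54391401 to 54403300 (11900 bp, score 0.383), were covered too.

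The 5 largest stretches, after merging within 10 kb, held between 15.1 and 22.3 kb of region each. The stretch from 43316301 to 43349600 joined 5 regions with 22.3 kb of region, and 29.4 kb of its span lay in unfiltered regions. The stretch from 42100001 to 42120800 joined 3 regions with 19 kb, and lay wholly within a single unfiltered region of 22.7 kb. The longest region stood alone as a stretch, followed by a stretch of 5 regions, from 57675401 to 57706100, with 17 kb. The fifth, from 28676301 to 28710200, joined 6 regions. Its first 3 regions were covered wholly by unfiltered regions and its last 3 were touched by none. No stretch of the arm joined more than 6 regions, a number also reached from 57089401 to 57116200. Larger stretches occurred elsewhere, with up to 34.2 kb of region on the short arm and 148.9 kb on the other chromosomes. A stretch joined up to 6 regions on the short arm and up to 19 on the other chromosomes.

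The long arm differed from the rest of the genome when the filtered and unfiltered lists were set side by side. Without the filter it held 275 regions, or 5.39 per Mb, against 9.11 per Mb on the short arm and 7.85 per Mb on the other chromosomes. This was the lowest number per Mb of the 26 units, the other chromosomes running between 6.43 per Mb on chromosome 21 and 9.0 per Mb on chromosome 12. By bases the long arm was not the lowest. Unfiltered regions covered 1.13% of it, 1.56% of the short arm and 1.42% of the other chromosomes. It ranked 4 from the lowest, and the lowest was chromosome 21 with 0.996%. The long arm held 2.63% of all unfiltered regions (interval 2.34 to 2.95%), below its 3.80% share of the sequence. It had 1.98 filtered regions for each unfiltered region, the highest ratio of the 26 units, against 1.35 on the short arm and 1.26 to 1.59 on the other chromosomes. Counted in bases the ratio was 1.48, against 1.21 on the short arm and 1.08 to 1.37 on the other chromosomes. Unfiltered regions on the long arm had a median length of 900 bp, against 1000 bp on the short arm and 800 bp on the other chromosomes, and their median gap was 108.2 kb, 55.1 kb and 59.2 kb in the same order.

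**Figure D3:**
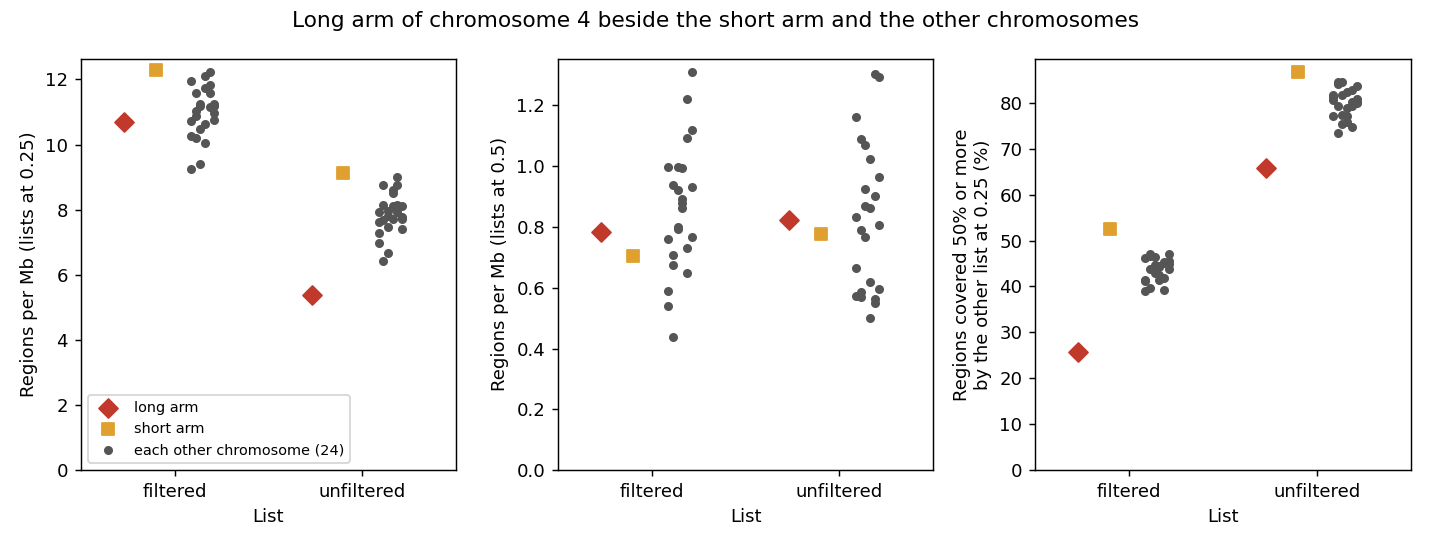
Left and middle, regions per Mb in the filtered and unfiltered lists at 0.25 and at 0.5; right, share of regions (%) covered 50% or more by the other list at 0.25. The long arm (red diamond), the short arm (yellow square) and each of the 24 other chromosomes (grey points) are plotted. At 0.25 the long arm lies among the others in the filtered list (10.7 per Mb) and below all of them in the unfiltered list (5.39 per Mb), and it is lowest for both shares in the right panel (25.7% and 65.8%).

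The same held for the overlap of the lists. Over the whole filtered list, 43.2% of regions were covered 50% or more by unfiltered regions. On the long arm 140 of 545 were (25.7%, interval 22.2 to 29.5%), against 174 of 332 on the short arm (52.4%, interval 47.04 to 57.7%) and 6076 of 13929 on the other chromosomes (43.6%, interval 42.8 to 44.4%). The lowest share on another chromosome was 39.0%, on chromosome 8. Conversely, 79.6% of all unfiltered regions were covered 50% or more by filtered ones. On the long arm 181 of 275 were (65.8%, interval 60.03 to 71.2%), against 213 of 246 on the short arm (86.6%) and 7933 of 9934 on the other chromosomes (79.9%), where the lowest share was 73.3%, on chromosome 15. In both directions the long arm had the lowest share of the 26 units.

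More long-arm regions of each list were also without any contact to the other list. No unfiltered region touched 354 of the 545 filtered regions (65.0%), against 38.9% on the short arm and 45.6% on the other chromosomes. Over the whole filtered list 6832 of 14806 regions were untouched. These 354 regions had a median of 500 bp, a median score of 0.264 and no region over 5200 bp. They were shorter and lower than the arm's regions covered 50% or more (medians 2300 bp and 0.315). Untouched regions elsewhere had lower medians still, 300 bp and 0.2589 on the short arm and 400 bp and 0.2597 on the other chromosomes. The longest untouched region had 3800 bp and 6500 bp in the same order. Untouched regions held 34.9% of the region bases on the long arm, 12.3% on the short arm and 16.6% on the other chromosomes. Of the 275 unfiltered regions of the arm, 79 (28.7%) were touched by no filtered region, against 11.8% on the short arm and 17.5% on the other chromosomes. Over the whole unfiltered list 1850 of 10455 were untouched. The 79 regions summed to 90 kb, the longest had 12100 bp, and the highest score among them was 0.520, in the region from 57661201 to 57669300.

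Within each length class the covered share was also lowest on the long arm. Among regions of 1000 to 1900 bp, 21.8% of those on the long arm were covered (interval 14.8 to 30.8%), against 74.6% on the short arm and 55.04% on the other chromosomes. Among regions of 2000 to 4900 bp the shares were 39.8% (interval 30.9 to 49.5%), 86.5% and 76.3% in the same order. For regions of 5000 bp or more, 81.4% (interval 67.4 to 90.3%) were covered on the long arm, 93.3% on the short arm and 97.0% (interval 95.6 to 98.0%) on the other chromosomes. Among regions of 500 to 900 bp the shares were 22.3%, 42.7% and 35.0%, and among those of 100 to 400 bp they were 9.74%, 16.2% and 15.2%. The intervals of the long arm and the short arm overlapped for the shortest and the longest class and were apart in the other 3 classes.

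**Figure D4:**
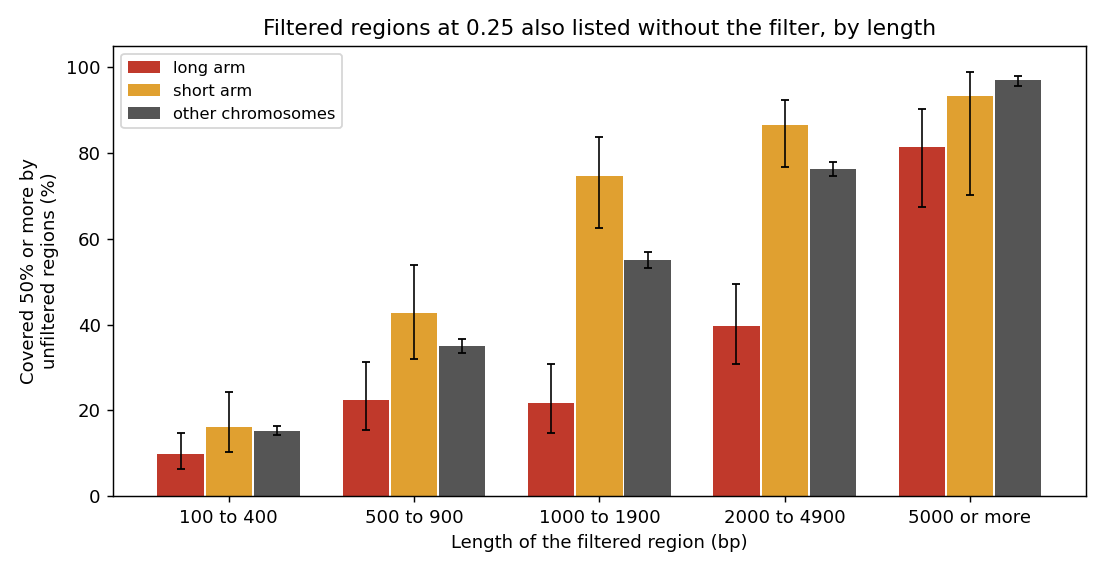
Share of filtered regions at 0.25 (%) covered 50% or more by unfiltered regions, by length class in bp, for the long arm (red), the short arm (yellow) and the other chromosomes (grey). Bars start at 0 and error bars are 95% Wilson intervals for counting error. The long-arm bar is the lowest in each class, with 21.8% covered against 55.04% on the other chromosomes at 1000 to 1900 bp. In the shortest class its interval overlaps those of the short arm and the other chromosomes.

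Scores could be paired only where a filtered region was covered, so both scores of a pair had passed the same threshold. Since most scores lie near that threshold, the pairs cannot show whether the 2 lists score a region alike. The 405 long-arm regions that were not covered are left out. A single unfiltered region could also serve several filtered ones, as 0.644 did for the regions of 0.472, 0.375 and 0.379 between 42100001 and 42120800. The filtered score minus that of the best overlapping unfiltered region had a median of 0.0100 over 140 long-arm regions, 0.0148 over 174 short-arm regions and 0.0130 over 6076 other regions, if the lists share a scale. The filtered score was the higher in 64.3% of long-arm pairs (interval 56.1 to 71.7%), 81.6% of short-arm pairs (interval 75.2 to 86.7%) and 76.1% of the others (interval 75.03 to 77.2%).

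The low overlap was spread along the arm. In segments of 10 Mb from the boundary outward, the last reaching to the end of the arm, the filtered list held 11.4, 10.5, 10.3, 10.6 and 10.6 regions per Mb, and the unfiltered list held 5.40, 6.30, 4.80, 6.10 and 4.45. The share of filtered regions covered was 31.6%, 29.5%, 20.4%, 20.8% and 25.6%. All 5 segments were below 42.1%, the median of the 114 segments of 10 Mb on the other chromosomes. Low segments were found elsewhere too. On the other chromosomes, 21 of 114 segments had an unfiltered density at or below 6.30 per Mb, the highest of the arm, and the lowest had 3.90 per Mb, on chromosome 14. Over all 114 segments the covered shares ran between 19.6% and 61.5% with a median of 42.1%. By covered share, 7 of the 114 segments, on 6 chromosomes, were at or below the highest segment of the arm. The lowest of them lay at 20 to 30 Mb of chromosome 6, and none of the other chromosomes had more than 2 such segments next to each other. The cut was the arm's own highest value, so all 5 arm segments met it by construction. Chromosome 1 had 31.6% at 20 to 30 Mb and 31.7% at 30 to 40 Mb, the latter just above the cut. The segments of chromosome 6 between 10 and 50 Mb had 33.6%, 19.6%, 30.6% and 37.7%, all below the median of 42.1% too.

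**Figure D5:**
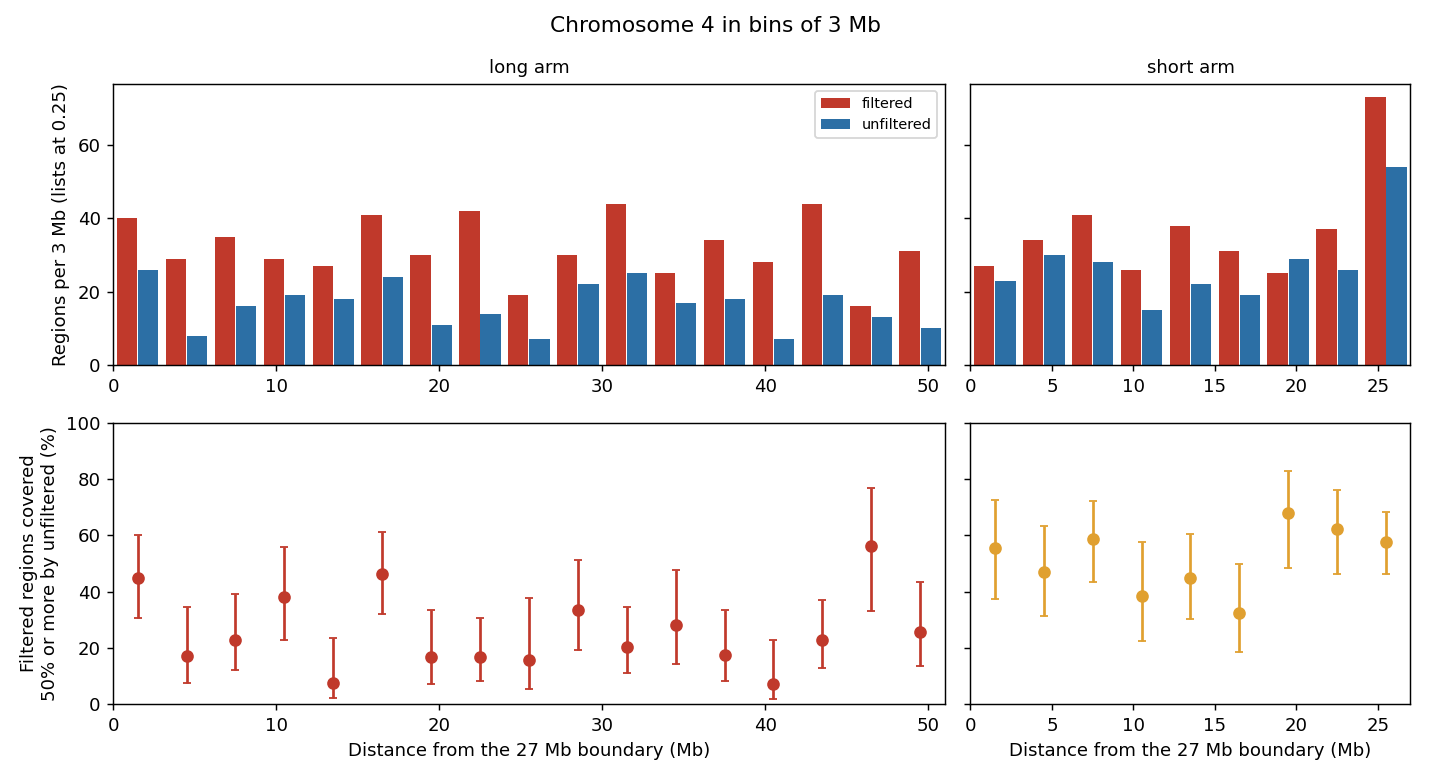
Top, number of filtered (red) and unfiltered (blue) regions at 0.25 in bins of 3 Mb; bottom, share (%) of the filtered regions of each bin covered 50% or more by unfiltered regions, with 95% Wilson intervals. The horizontal axes give the distance from the 27 Mb boundary in Mb on the long arm (left panels) and the short arm (right panels). The median bin is at 22.7% on the long arm and 55.6% on the short arm. Over all its regions the short arm has 52.4%, above each other chromosome (highest 47.2%). The other chromosomes were not divided into such bins.

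In bins of 3 Mb the covered share on the long arm lay between 7.14% and 56.3% with a median of 22.7%, and on the short arm between 32.3% and 68.0% with a median of 55.6%. The short arm is a high comparator, since its share over all regions, 52.4%, was above that of each other chromosome (highest 47.2%). The other chromosomes were not divided into bins of 3 Mb. The bin next to the boundary was among the higher ones of the long arm. The first bin of the long arm, 27 to 30 Mb, held 40 filtered and 26 unfiltered regions and 45% of the filtered ones were covered, while in the next bin there were 29 and 8 regions and 17.2% were covered. The bins at 27 to 30, 42 to 45 and 72 to 75 Mb were the 3 of the long arm above 40%. Single bins held between 16 and 44 filtered regions on the long arm, so their intervals were wide. At 1 Mb, 21 of 51 bins of the long arm held at most 3 unfiltered regions, against 1 of 27 on the short arm and 177 of 1257 on the other chromosomes.

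At the threshold of 0.5 the filtered list held 40 long-arm regions. All 1141 regions of that list, these 40 included, lay inside regions of the 0.25 list. The density was 0.784 per Mb on the long arm, 0.704 per Mb on the short arm and 0.855 per Mb on the other chromosomes, a ratio of 0.917 to the other chromosomes (interval 0.669 to 1.26). Of the 19 short-arm regions at 0.5, 5 lay at 25 to 26 Mb and 4 at 26 to 27 Mb, so the comparison with the short arm depends on the boundary. Of the 545 long-arm regions at 0.25, 33 held a region of the 0.5 list (6.06%, interval 4.34 to 8.38%), against 15 of 332 on the short arm (4.52%) and 779 of 13929 on the other chromosomes (5.59%), with 5.59% over the whole list. The share on the long arm was thus near that of the whole list. After the region that began at 70440701 and the 100 bp region that began at 63362501, the highest scores were 0.764 from 57590401 to 57595800, 0.697 from 42617401 to 42624100 and 0.686 from 74858401 to 74865700.

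The long-arm regions of the 0.5 list had a shorter median than those elsewhere. Their median length was 750 bp (interval 500 to 2100 bp), against 1400 bp (600 to 4400 bp) on the short arm and 1400 bp (1200 to 1700 bp) on the other chromosomes. It was the shortest median of the 26 units, with 800 bp the next, on chromosome 19. The 40 regions covered 0.15% of the long arm, against 0.197% of the short arm and 0.248% of the other chromosomes, and made up 2.34% of all region bases at 0.5. With 40 regions the interval of the median was wide and included that of the other chromosomes.

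At 0.5 the number of unfiltered regions per Mb on the long arm was close to that elsewhere, but they covered less of it. The list held 42 regions there, or 0.823 per Mb, against 0.778 per Mb on the short arm and 0.841 per Mb on the other chromosomes. The regions covered 0.207% of the long arm, 0.2504% of the short arm and 0.303% of the other chromosomes. Merged within 10 kb, they formed 0.373 stretches per Mb, against 0.444 and 0.513 in the same order. Of the 1 Mb windows, 72.5%, 55.6% and 63.6% held no region. These values carry no interval. Merged stretches of the long arm more often held several regions than those of the other chromosomes. Merging within 10 kb gave 19 stretches, of which 11 joined 2 or more regions (57.9%, interval 36.3 to 76.9%), against 25.0% (interval 8.89 to 53.2%) on the short arm and 30.4% (interval 26.9 to 34.0%) on the other chromosomes, while in the filtered list at 0.5 the shares were 19.4% (interval 9.19 to 36.3%), 27.3% and 28.1% in the same order. The segment of 37 to 47 Mb held 16 of the 42 regions. The largest unfiltered stretches at 0.25 lay in the same parts of the arm as the filtered ones, from 57589901 to 57629100 with 37.3 kb of region, from 57661201 to 57698700 with 34.9 kb and from 43307801 to 43349800 with 32.8 kb. Filtered regions held only 22.6, 14.3 and 22.3 kb of them in the same order. The unfiltered regions from 57610301 to 57622400 and from 57661201 to 57669300, within these stretches, were not covered by any filtered region.

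At 0.5 the overlap depended on the setting. Of the 40 filtered regions at 0.5, 33 were covered 50% or more by the unfiltered list at 0.25 (82.5%, interval 68.1 to 91.3%), against 18 of 19 on the short arm and 1070 of 1082 on the other chromosomes (98.9%, interval 98.1 to 99.4%). Of the 40, 6 were touched by no unfiltered region at 0.25. Untouched were 1 of 19 on the short arm, 8 of 1082 on the other chromosomes and 15 of 1141 over the whole list. The share touched was 85.0% (interval 70.9 to 92.9%) on the long arm and 94.7% (75.4 to 99.1%) on the short arm. It was 99.3% (98.5 to 99.6%) on the other chromosomes and 98.7% over the whole list. The 6 ran from 28703401 to 28703600 (score 0.634), from 28705601 to 28706500 (0.543), from 28882601 to 28885100 (0.534), from 31245201 to 31245300 (0.501), from 38915901 to 38916100 (0.516) and from 50397201 to 50397800 (0.514). The first 2 of these lay in the stretch from 28676301 to 28710200 described above. When both lists were taken at 0.5, 21 of 40 were covered (52.5%, interval 37.5 to 67.1%), against 13 of 19 on the short arm and 687 of 1082 on the other chromosomes (63.5%, interval 60.6 to 66.3%), a difference within counting error. With 90% as the overlap these shares were 47.5%, 47.4% and 44.8% in the same order. In the other direction, filtered regions at 0.25 covered 50% or more of 36 of the 42 unfiltered long-arm regions at 0.5 (85.7%, interval 72.2 to 93.3%), against 85.7% on the short arm and 90.3% on the other chromosomes. With both lists at 0.5, 19 of 42 were covered (45.2%), against 11 of 21 and 649 of 1064 in the same order. With 90% as the overlap the shares were 28.6% (interval 17.2 to 43.6%), 33.3% and 50.2% (interval 47.2 to 53.2%). With 1 bp they were 50% (interval 35.5 to 64.5%), 57.1% and 68.05% (interval 65.2 to 70.8%). At 90% and at 1 bp the intervals of the long arm and the other chromosomes were apart, while at 50% they overlapped.

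No number of reads is given for any region. The genes, repeats and base composition at these regions were not analysed here, and their part in the differences between the lists was not tested.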

How the data were processed

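DNA of wild-type zebrafish embryos at 2.5 hpf was sequenced as 1 enriched and 1 input library, with paired reads of 151 bp. According to the submitters' processing notes, reads were trimmed with Trimmomatic, mapped with BWA and handled with SAMtools and deepTools. The study's methods name BWA, SAMtools and the GRCz11 reference for its whole genome sequencing, and they do not describe the pull-down. The authors deposited 6 region lists, at thresholds of 0.25, 0.5 and 1 with and without a filter on mapping quality, each with a score per region whose scale is not stated. Which list is which was read from the lists' names. The program that called the regions is not given in the sources used here, and neither is the mapping quality required. No read count is in the lists, so depth is unknown.

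Regions were read with their starts raised by 1, and lengths, gaps, densities, merged stretches (10 kb) and overlaps (50% of a region covered) were computed in Python 3.11.15 with numpy 2.4.6, pandas 2.3.3 and scipy 1.17.1, and drawn with matplotlib 3.10.9. The last region in any list served as the end of each chromosome, which gave 1342.81 Mb in all. Shares carry 95% Wilson intervals, and medians carry binomial order-statistic intervals. No test was run, since replicates are lacking. The code was checked on simulated lists with known answers. Regions named by position were the 10 highest scores and 5 longest at 0.25, the 5 highest at 0.5, those at 1, the neighbours of the boundary, the 5 longest gaps and the 5 largest stretches. The members and lists were chosen with earlier results of these data known. The ranks over 26 units, the 10 Mb segments, the 3 Mb bins, the length classes, the 100 bp regions, the score pairs, the 6 regions at 0.5 with no unfiltered contact and the unfiltered stretches were added after values had been seen. Alternatives were the other lists, arm boundaries at 24 and 30 Mb, leaving out regions under 500 bp or within 1 Mb of chromosome ends, merging within 1 or 100 kb, 1 Mb windows, and overlaps of 1 bp or 90%.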

Additional observations from a re-analysis of the deposited data

How the results depend on the processing

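Of 102 alternative values, 44 stayed within the tolerance set for the result and 58 moved. The tolerance was 1.5 times for the number of regions and a 95% interval for the rest, in which shares of bases were treated as shares of the regions. Some comparisons changed side. Long-arm density over that of the other chromosomes was 1.01 when 1 Mb at every chromosome end was left out, and over that of the short arm it was 1.11 in the filtered list at 0.5. The latter ratio depends on the boundary, since many short-arm regions at 0.5 lay close to it. The median long-arm gap, longer than on the other chromosomes in the filtered list at 0.25, was shorter in the unfiltered list at 0.5. There it was 7 kb (interval 1.1 to 694.5 kb), against 181.1 kb. In each of these lists the long-arm interval included the median of the other chromosomes. At the higher thresholds lists are shorter by construction. In the filtered list at 0.5 the long arm had 40 regions, 2.34% of all region bases, a median score of 0.537, a median gap of 756.3 kb, 93.9% of 100 kb windows empty and 66.8% of region bases in the 10 longest stretches. In the filtered list at 1 it had 2 regions (1.85% of regions, 1.46% of bases), a density ratio to the other chromosomes of 0.477, a median length of 2550 bp, a median score of 1.22, a gap of 7078 kb, 99.6% of windows empty and 100% of bases in the 10 longest stretches. Without the filter at 0.25 it had 275 regions (2.63% of regions, 3.03% of bases), a density ratio of 0.686, a median gap of 108.2 kb, 64.3% of windows empty and 35.1% of bases in the 10 longest stretches, and the cause was not tested. Without the filter at 0.5 it had 42 regions (2.63% of bases), a median length of 1600 bp, a median score of 0.545, a median gap of 7 kb, 96.1% of windows empty and 77.2% of bases in the 10 longest stretches. Without the filter at 1 it had 2 regions (1.74% of regions, 1.80% of bases), a density ratio of 0.451, a median length of 2650 bp, a median score of 1.24, a gap of 7073 kb, 99.6% of windows empty and 100% of bases in the 10 longest stretches. Beginning the arm at 24 Mb gave 4.11% of region bases. Merging regions within 1 kb gave a median length of 1200 bp, a median score of 0.279 and a median gap of 71.7 kb. Leaving out regions under 500 bp left 350 regions, with a median length of 1600 bp, a median score of 0.292 and a median gap of 80.6 kb. With 1 Mb windows 0% were empty, and merging within 100 kb put 22.2% of bases in the 10 longest stretches, against 17.4% within 10 kb. A region of the list at 1 was held by 0.367% of members, and among members of 500 bp or more 8.86% held a region of the 0.5 list. Unfiltered regions covered 35.0% of the filtered regions with 1 bp of overlap, 14.5% with 90%, 52.5% with both lists at 0.5 and 50% with both at 1. Filtered regions covered 71.3%, 52.7%, 45.2% and 50% of the unfiltered ones in the same order.

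No paired analysis was possible because the study has a single library of each kind, and leaving out a replicate does not apply. The spread between pull-downs is unknown. Scores were compared within a list apart from the score pairs, which take the lists to share a scale. Base composition and gene features, with their alternatives, were not run, as no GRCz11 genome or annotation was used.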
